A study of Macaca fascicularis with 3 samples.

Results

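The 9 genes described here code for 2 groups of Polycomb repressors: MAX, MGA, E2F6, L3MBTL2, PCGF6 and RNF2, subunits of the complex PRC1.6, and EZH2, EED and SUZ12, the core of the complex PRC2. They were taken by their symbols, and all 9 were found among the 26017 monkey features of the count tables. PRC1.6 is a variant of Polycomb repressive complex 1 that is brought to DNA by the MGA-MAX pair, which binds E-boxes, and by E2F6, which binds E2F sites. In mouse embryonic stem cells and somatic cells it is known for keeping meiotic and other germline genes silent, and in mouse the loss of MAX is known to let such cells switch on meiotic genes. PRC2 methylates lysine 27 of histone H3 and acts beside PRC1 at many developmental genes. In the germline both complexes are known as repressors whose action has to be timed against the entry into meiosis.

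The cells were cynomolgus monkey germ cells derived from 15XRi-AGVT#7, an embryonic stem cell line of wildtype genotype with the reporters TFAP2C-EGFP and DDX4-tdTomato, and grown in xenogeneic reconstituted ovaries, which are aggregates with mouse fetal ovarian somatic cells. There was 1 10x Genomics 3′ library per stage of the mouse cells (embryonic day E13.5, E14.5 or E15.5), and each was labelled ag49+52. Sorting took the germ cells by their reporters and the mouse cells by their absence, and the fractions were pooled for loading. All germ cells were of 1 line, and no stage had a second library. Where 3 values are given for a state, they follow the stage of the mouse cells, from E13.5 to E15.5. The study labelled all the cells early oogonia, and they cover several states, as described next.

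Germ cells were the barcodes with 2 to 20% of their UMIs in the 13 mitochondrially encoded genes and at least 10000 UMIs, which gave 537, 536 and 1113 cells, or 2186 of 7827 deposited barcodes. Their median depth was 55620, 43003 and 48553 UMIs. A cell was POU5F1-high at 3 or more POU5F1 UMIs per 10000, STRA8-positive at 1 or more STRA8 UMI per 10000, and SYCE3-high at or above the 95th percentile of SYCE3, which was 5.66 per 10000. POU5F1 marks early oogonia, STRA8 is the gene induced by retinoic acid at meiotic entry, and SYCE3 is a part of the synaptonemal complex that joins paired chromosomes in meiotic prophase. There were 108 SYCE3-high, 235 STRA8-positive, 1402 remaining and 439 POU5F1-high cells, and 2 cells past both the POU5F1 cut and another one were left out. These are ranges of a score and not cell types: 28, 151 and 43 cells lay within 20% of the POU5F1, STRA8 and SYCE3 cuts. Of early oogonia markers, 6 of 6 tested were lower in STRA8-positive than in POU5F1-high cells. Of meiotic prophase markers, 7 of 7 were higher in SYCE3-high than in STRA8-positive cells. Of STRA8-positive markers, 5 of 5 were higher in STRA8-positive than in POU5F1-high cells, and 1 was higher and 4 were lower in SYCE3-high than in STRA8-positive cells. These lists were chosen with earlier results of these data known, so the counts describe the states and do not test their labels.

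Some features of the libraries touch all that follows. Of the germ barcodes, 49.7%, 10.8% and 30.9% were also deposited in another library, at medians of 1254, 703 and 923 UMIs there, and 0 of them were germ cells in 2 libraries. The share moved with the state. Of SYCE3-high barcodes 77.8%, 33.3% and 85.2% were shared in the 3 libraries, of STRA8-positive ones 54.0%, 19.0% and 39.2%, and of POU5F1-high ones 3.13%, 0% and 2.86%. Leaving the shared barcodes out kept 6, 18 and 8 SYCE3-high cells. For the 9 genes, values without them are given beside the results whose calls they end. Among results of other genes checked this way, 73 kept their side of the threshold, 16 lost it and 1 passed it newly. These are not given by gene below. Mouse barcodes, with under 2% mitochondrial UMIs, also held UMIs of all 9 genes, although the files list monkey genes only. The summed 13 mouse somatic markers held 167 to 438 CPM (counts scaled to 1e6 UMIs) in SYCE3-high cells, 160 to 165 CPM in STRA8-positive cells and 358 to 678 CPM in POU5F1-high cells, against 5206 to 7431 CPM in mouse barcodes. LGALS1 alone held 332 to 621 CPM of the POU5F1-high sum. Of the 10 such markers tested, 7 were higher and 1 lower in SYCE3-high than in POU5F1-high cells. EHF was at 0 in STRA8-positive and in SYCE3-high cells, and LTF was at 0 in STRA8-positive cells. With the 5% of germ cells richest in these markers left out, all 27 results of the 9 genes kept their side of the threshold.

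The states also differed in the make-up of their RNA. The 83 ribosomal protein genes, a list added after the data were seen, took 10.4 to 11.7% of the UMIs of SYCE3-high cells, 13.4 to 15.3% in STRA8-positive cells, 15.6 to 17.6% in the remaining cells and 26.4 to 30.6% in POU5F1-high cells. Scaled to total UMIs, the median log2 fold change of all 14620 genes tested was 0.56 for STRA8-positive over POU5F1-high cells, 0.0072 for SYCE3-high over STRA8-positive cells and 0.60 for SYCE3-high over POU5F1-high cells. TMM scaling, which sets the bulk of genes level, brought these medians to 0.019, −0.036 and 0.015. Levels below are therefore TMM-scaled CPM of cells summed per library and state. Members past the threshold under TMM whose direction differs when only total UMIs are used are named. Fold changes come from edgeR's quasi-likelihood test on these sums, blocked by library and adjusted over all genes by the Benjamini-Hochberg method, with 3 libraries of different mouse stages as the repeats.

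**Figure D1:**
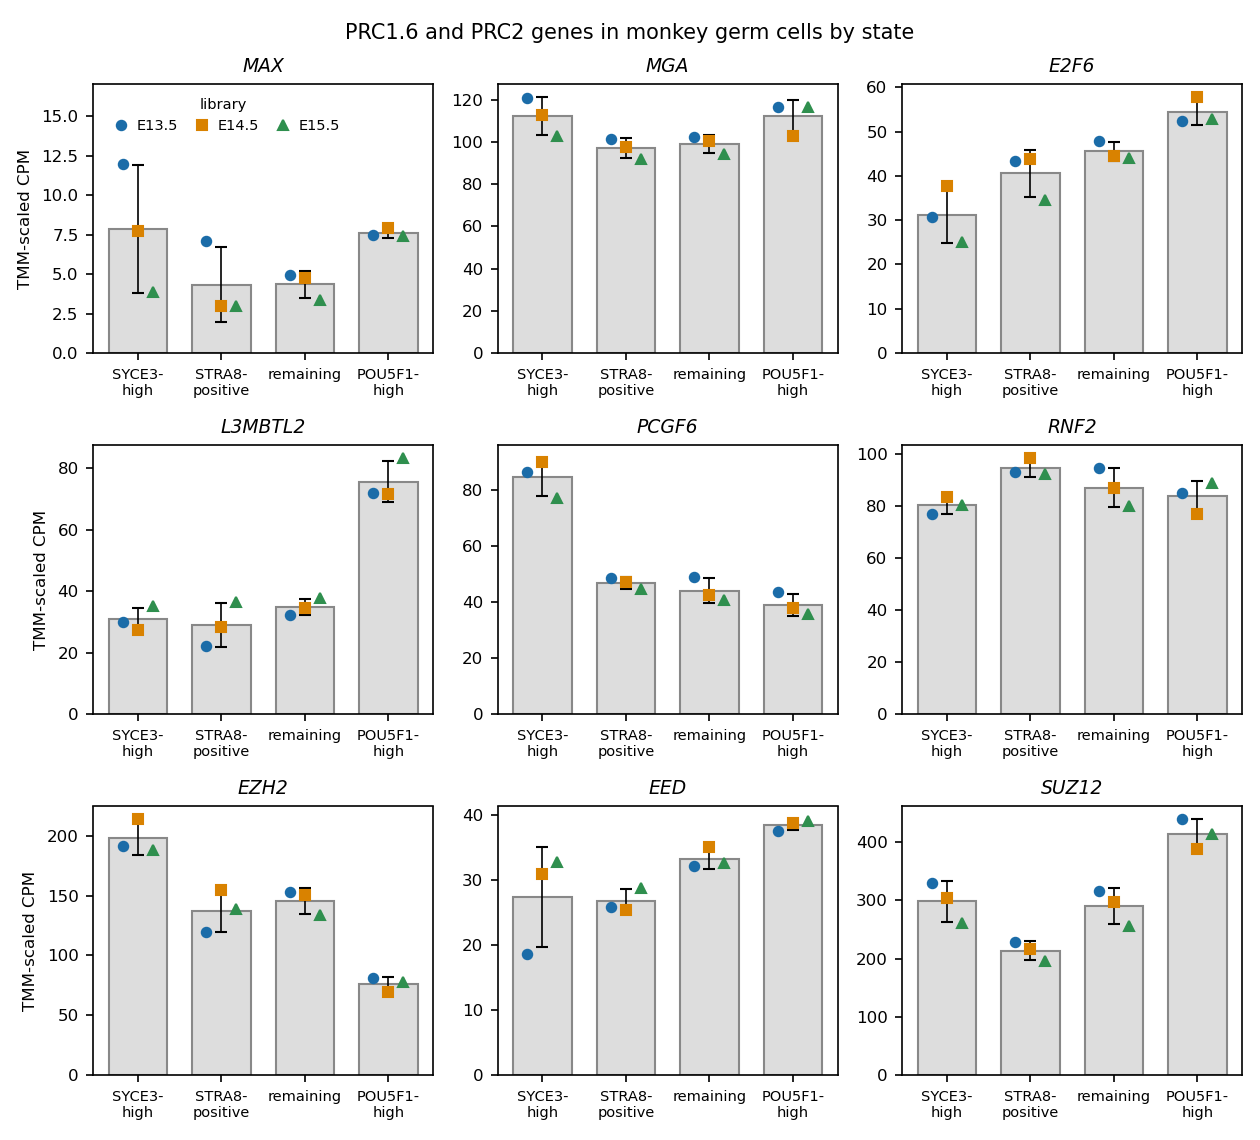
Levels of the 9 genes in SYCE3-high, STRA8-positive, remaining and POU5F1-high germ cells, as TMM-scaled CPM. Points are the 3 libraries and bars with whiskers the mean and SD. EZH2 and PCGF6 are highest in SYCE3-high cells, at means of 198 and 84.7, and L3MBTL2 is highest in POU5F1-high cells, at a mean of 75.7.

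EZH2, the catalytic subunit of PRC2, rose in both later states. In SYCE3-high cells it was at 192, 214 and 188 TMM-scaled CPM, and in STRA8-positive cells at 119, 154 and 138. In the remaining cells it was at 153, 151 and 133, and in POU5F1-high cells at 81.0, 69.8 and 77.7. The POU5F1-high libraries lay below and the SYCE3-high libraries above all others, while the ranges of STRA8-positive and remaining cells overlapped. The log2 fold change was 0.84 ± 0.10 (SE) for STRA8-positive over POU5F1-high cells (adjusted p = 9.67e-07), 0.53 ± 0.11 for SYCE3-high over STRA8-positive cells (adjusted p = 0.000389) and 1.37 ± 0.11 for SYCE3-high over POU5F1-high cells (adjusted p = 1.17e-09), each in the same direction in 3 of 3 libraries. Under total UMI scaling the values were 1.39, 0.56 and 1.95. Without shared barcodes SYCE3-high over STRA8-positive cells gave 0.37 (adjusted p = 0.0831), and SYCE3-high over POU5F1-high cells gave 1.27. After each cell was thinned to 10000 UMIs, which is a scaling to total UMIs, shares were taken over the cells of the 3 libraries pooled. EZH2 was seen in 87.0% of SYCE3-high cells (95% exact Clopper-Pearson interval 79.2 to 92.7), 78.3% of STRA8-positive cells (72.5 to 83.4) and 35.3% of POU5F1-high cells (30.8 to 40.0). These intervals do not cover the spread between libraries. By library the shares were 74.1%, 92.6% and 90.7% in SYCE3-high cells, and 77.8%, 85.7% and 76.2% in STRA8-positive cells. In POU5F1-high cells they were 42.2%, 33.8% and 34.3%. Without thinning the pooled shares were 99.1%, 98.3% and 85.4%, and no cell type in the files is known to lack EZH2.

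SUZ12, the PRC2 subunit that the complex needs for its stability and for binding to chromatin, dipped in STRA8-positive cells. It was at 329.9, 304 and 261 TMM-scaled CPM in SYCE3-high cells, 228, 217 and 196 in STRA8-positive cells, 315, 298 and 255 in the remaining cells and 439, 389 and 414 in POU5F1-high cells. All 3 STRA8-positive values lay below those of every other state, and SYCE3-high and remaining cells overlapped. SUZ12 fell by 0.96 ± 0.08 on the log2 scale in STRA8-positive against POU5F1-high cells (adjusted p = 7.09e-09), and by 0.42 under total UMI scaling. It was higher by 0.48 ± 0.09 in SYCE3-high than in STRA8-positive cells (adjusted p = 0.000165), but by only 0.12 without shared barcodes (adjusted p = 0.613). SYCE3-high stood 0.49 ± 0.08 below POU5F1-high cells (adjusted p = 4.22e-05), and under total UMI scaling this log2 fold change became 0.10 (adjusted p = 0.321). With the SYCE3 cut set higher it was −0.17 (adjusted p = 0.134), and with that cut set lower SYCE3-high over STRA8-positive cells gave 0.19 (adjusted p = 0.0719).

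EED, which reads the methylated histone mark and switches the PRC2 enzyme on, was at 18.7 to 32.8 TMM-scaled CPM in SYCE3-high cells, 25.4 to 28.9 in STRA8-positive cells, 32.2 to 35.2 in the remaining cells and 37.6 to 39.2 in POU5F1-high cells. The POU5F1-high values lay above all others. The log2 fold change was −0.50 ± 0.13 in STRA8-positive over POU5F1-high cells (adjusted p = 0.00262) and −0.44 ± 0.15 in SYCE3-high over POU5F1-high cells (adjusted p = 0.0139). Both calls ended under total UMI scaling, with log2 fold changes of 0.04 and 0.15, and in cells thinned to 10000 UMIs, with −0.24 (adjusted p = 0.338) and −0.35 (adjusted p = 0.268). Without shared barcodes the second gave −0.21 (adjusted p = 0.534). The SYCE3-high spread came from E13.5, the lowest of the 3, and without that library the second call was lost (log2 fold change −0.31, adjusted p = 0.111).

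PCGF6, the PCGF subunit that defines PRC1.6, rose most in SYCE3-high cells. It was at 86.6, 90.2 and 77.2 TMM-scaled CPM in SYCE3-high cells, 48.6, 47.3 and 44.5 in STRA8-positive cells, 48.997, 42.6 and 40.6 in the remaining cells and 43.5, 38.0 and 35.8 in POU5F1-high cells. The 3 SYCE3-high values lay above all the others, whereas the remaining cells overlapped both the POU5F1-high and the STRA8-positive cells. SYCE3-high over STRA8-positive cells gave a log2 fold change of 0.85 ± 0.11 (adjusted p = 3.12e-06), and 0.84 without shared barcodes (adjusted p = 0.00272). SYCE3-high over POU5F1-high cells gave 1.12 ± 0.11 (adjusted p = 1.70e-08). The step in STRA8-positive over POU5F1-high cells was small, 0.27 ± 0.10 (adjusted p = 0.0283). Its call was lost with any 1 of the libraries left out (0.24 to 0.31). It was also lost without shared barcodes (0.23, adjusted p = 0.132) and in cells thinned to 10000 UMIs (0.32, adjusted p = 0.154). After thinning, and with the cells of the 3 libraries pooled, 64.8% of SYCE3-high cells (55.0 to 73.8), 42.1% of STRA8-positive cells (35.7 to 48.7) and 25.5% of POU5F1-high cells (21.5 to 29.9) had a PCGF6 UMI, against 94.4%, 79.1% and 73.3% before it. By library the thinned shares were 70.4%, 70.4% and 59.3% in SYCE3-high cells, and 47.6%, 38.1% and 40.8% in STRA8-positive cells. In POU5F1-high cells they were 32.8%, 22.3% and 25.3%.

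L3MBTL2, the PRC1.6 subunit with malignant brain tumor repeats, went the other way. SYCE3-high cells held 29.9, 27.5 and 35.1 TMM-scaled CPM, STRA8-positive cells 22.1, 28.4 and 36.5, the remaining cells 32.3, 34.4 and 37.6, and POU5F1-high cells 72.0, 71.8 and 83.3. The POU5F1-high values were apart from the rest, and the ranges of the other states overlapped each other. L3MBTL2 fell by 1.37 ± 0.12 on the log2 scale in STRA8-positive against POU5F1-high cells (adjusted p = 5.65e-09), or by 0.83 under total UMI scaling. It fell by 1.29 ± 0.13 in SYCE3-high against POU5F1-high cells (adjusted p = 4.87e-08), by 0.70 under total UMI scaling and by 1.22 without shared barcodes. Between SYCE3-high and STRA8-positive cells the log2 fold change was 0.08 ± 0.15 (adjusted p = 0.767).

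E2F6, the repressive E2F factor of PRC1.6, was at 30.6, 37.8 and 25.1 TMM-scaled CPM in SYCE3-high cells, 43.3, 43.8 and 34.5 in STRA8-positive cells and 52.5, 57.7 and 52.9 in POU5F1-high cells. The POU5F1-high values lay above the other sets, which overlapped. The log2 fold change was −0.46 ± 0.12 for STRA8-positive over POU5F1-high cells (adjusted p = 0.00174), −0.41 ± 0.15 for SYCE3-high over STRA8-positive cells (adjusted p = 0.0273) and −0.87 ± 0.14 for SYCE3-high over POU5F1-high cells (adjusted p = 1.55e-05). Under total UMI scaling none of the 3 calls held, with log2 fold changes of 0.09, −0.36 and −0.28 (adjusted p = 0.524, 0.0513 and 0.0870). Without the E15.5 library the first of them gave −0.33 (adjusted p = 0.0805), and without shared barcodes the second gave −0.09 (adjusted p = 0.846).

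MGA, the DNA-binding scaffold of PRC1.6, kept within 92.1 and 121 TMM-scaled CPM in all 12 sums. Its means were 112 ± 9.0 CPM in SYCE3-high cells, 97.0 ± 4.7 CPM in STRA8-positive cells and 112 ± 7.9 CPM in POU5F1-high cells (SD, n = 3 each). STRA8-positive over POU5F1-high cells gave −0.22 ± 0.09 (adjusted p = 0.0382) under TMM and 0.32 under total UMI scaling (adjusted p = 0.00556), so its direction was set by the scaling, and without shared barcodes it gave −0.19 (adjusted p = 0.112). SYCE3-high over POU5F1-high cells gave −0.02 ± 0.10 under TMM (adjusted p = 0.880), 0.57 under total UMI scaling (adjusted p = 6.37e-05) and −0.51 without shared barcodes (adjusted p = 0.0161). RNF2, a ubiquitin ligase subunit of PRC1, passed the test in none of the contrasts. It averaged 80.1 ± 3.2 CPM in SYCE3-high cells, 94.4 ± 3.4 CPM in STRA8-positive cells and 83.5 ± 6.1 CPM in POU5F1-high cells (SD, n = 3 each). Under total UMI scaling its log2 fold changes over POU5F1-high cells were 0.71 in STRA8-positive and 0.52 in SYCE3-high cells, both past the threshold.

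MAX, the partner of MGA and of the MYC proteins, was barely counted, with 552 UMIs in the 2186 germ cells and at least 1 UMI in 20.9% of them. Its level was 11.9, 7.73 and 3.86 TMM-scaled CPM in SYCE3-high cells, 7.07, 2.96 and 2.98 in STRA8-positive cells and 7.45, 7.90 and 7.38 in POU5F1-high cells. In E14.5 the STRA8-positive value rests on 5 UMIs. The log2 fold change for STRA8-positive over POU5F1-high cells was −0.86 ± 0.31 (adjusted p = 0.0181). It was −0.33 under total UMI scaling (adjusted p = 0.352), −0.77 without E14.5 (adjusted p = 0.0656) and −0.52 without E15.5 (adjusted p = 0.289). In the RefSeq annotation T2T-MFA8v1.1 MAX overlaps FNTB, L3MBTL2 overlaps CHADL and EZH2 overlaps LOC102116746, all of them counted features, and whether reads were assigned by strand is not given in the sources used here. For these 3 genes reads of the overlapping gene cannot be told apart from the counts alone.

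Set against the background, 8 of the 9 genes passed the test in STRA8-positive over POU5F1-high cells (2 higher, 6 lower), where 66.8% of all genes did (33.6% higher, 33.1% lower). In SYCE3-high over STRA8-positive cells 4 passed (3 higher, 1 lower) against 51.7% of all genes (25.6% higher, 26.1% lower), and in SYCE3-high over POU5F1-high cells 6 passed (2 higher, 4 lower) against 71.4% (36.2% higher, 35.2% lower). The 9 genes were not tested as a group against these shares, and a changed gene was the common case in each contrast. Under total UMI scaling the counts were 4 higher and 2 lower, 3 higher and 0 lower, and 4 higher and 1 lower, against 55.7% and 16.1% of all genes (71.8% in all), 27% and 24.2% (51.2% in all), and 54.1% and 19.6% (73.7% in all). The 3 libraries of 1 state lay all above or all below those of the other for 9 of the 9 genes in the first contrast, 5 in the second and 6 in the third, where 65.6%, 52.7% and 67.2% of all genes did. Under DESeq2 all 27 results kept their side of the threshold. EZH2 and PCGF6 were higher and L3MBTL2 lower in SYCE3-high than in POU5F1-high cells under both scalings and with each library left out.

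**Figure D2:**
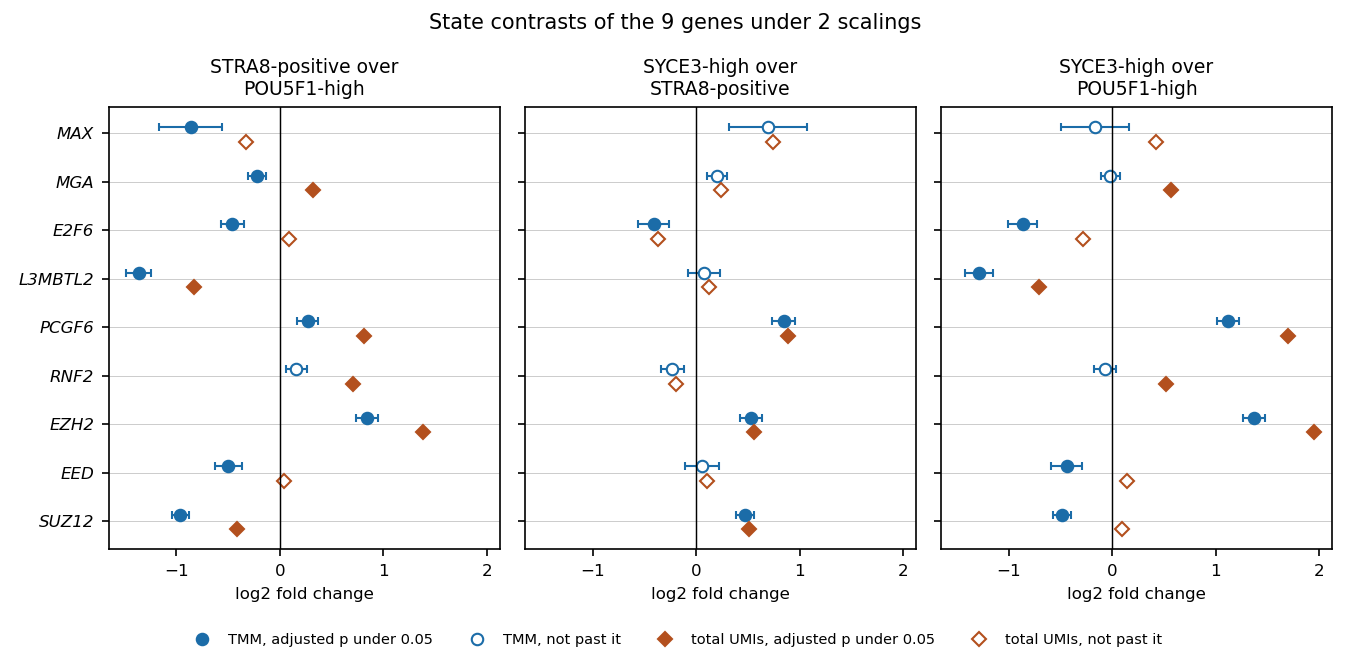
Log2 fold change of each gene in the 3 state contrasts. Circles are TMM-scaled values with bars of 1 SE, diamonds are scaled to total UMIs, and filled symbols have an adjusted p under 0.05. EZH2, PCGF6 and L3MBTL2 stay on one side of 0 over POU5F1-high cells under both scalings, while MGA, E2F6 and EED lie on both sides of it in STRA8-positive over POU5F1-high cells.

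Levels of cell cycle genes were compared between the states too. The summed 15 S phase genes held 2032 to 2115 CPM of total UMIs in SYCE3-high cells, 1508 to 1726 in STRA8-positive cells and 1421 to 1523 in POU5F1-high cells. The summed 15 G2 and M phase genes held 1823 to 2888, 1570 to 1852 and 1476 to 1977 CPM in the same order of states. Of the S phase genes 6 were higher and 5 lower in SYCE3-high than in STRA8-positive cells, among them CDC6, which loads the replicative helicase, at a log2 fold change of 2.38 ± 0.14 (adjusted p = 1.64e-10). In STRA8-positive over POU5F1-high cells 1 was higher and 11 were lower, among them PCNA, the sliding clamp of DNA replication, at −1.03 ± 0.09 (adjusted p = 6.36e-09), and 10 of the G2 and M phase genes were lower, among them AURKB, a mitotic kinase, at −3.16 ± 0.23 (adjusted p = 6.47e-10). Under total UMI scaling these counts became 5 higher and 3 lower for the S phase genes, and 4 higher and 5 lower for the G2 and M phase genes. The S phase median log2 fold change turned to 0.19, against −0.35 under TMM. Over all genes, 33.6% were higher and 33.1% lower in STRA8-positive than in POU5F1-high cells, and 55.7% and 16.1% under total UMI scaling. For SYCE3-high over STRA8-positive cells these shares were 25.6% and 26.1% under TMM. In cells low in both lists, EZH2 gave 1.16 in STRA8-positive over POU5F1-high cells (adjusted p = 4.57e-07) and 1.44 in SYCE3-high over POU5F1-high cells (adjusted p = 6.22e-06). PCGF6 gave 0.57 (adjusted p = 0.0327) and 0.64 (adjusted p = 0.139) there, with 5, 1 and 6 SYCE3-high cells left in the 3 libraries. In SYCE3-high over STRA8-positive cells low in both lists, neither call held, with 0.28 for EZH2 (adjusted p = 0.532) and 0.08 for PCGF6 (adjusted p = 0.930). The part of the cell cycle in these results was not tested beyond these values.

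Among the other subunits of PRC1.6, the split between higher and lower depended on the scaling. Of 9 partner genes, 3 were higher and 3 lower in STRA8-positive than in POU5F1-high cells, with a median log2 fold change of 0.03 against 0.019 for all genes, and 1 was higher and 3 were lower in SYCE3-high than in STRA8-positive cells. Under total UMI scaling the first split became 6 higher and 2 lower, with a median of 0.58 against 0.56 for all genes. Of all genes, 33.6% were higher and 33.1% lower in the first contrast (55.7% and 16.1% under total UMI scaling), and 25.6% and 26.1% in the second. YAF2 and RYBP are alternative subunits that stimulate the ligase of variant PRC1. YAF2 was at 70.4 ± 9.4 CPM in SYCE3-high cells, 74.4 ± 15.3 CPM in STRA8-positive cells and 14.1 ± 4.2 CPM in POU5F1-high cells (SD, n = 3 each), a log2 fold change of 2.23 ± 0.17 for STRA8-positive over POU5F1-high cells (adjusted p = 1.56e-09). RYBP had −0.65 ± 0.12 in that contrast (adjusted p = 0.000107), and −0.11 under total UMI scaling. WDR5, a scaffold that PRC1.6 shares with histone methyltransferases, fell to 89.0 ± 5.8 CPM in STRA8-positive cells, against 237 ± 20.4 CPM in POU5F1-high cells (adjusted p = 9.84e-11). HDAC1, a histone deacetylase, was at 129.5 ± 3.2 CPM in SYCE3-high cells, 60.8 ± 1.8 CPM in STRA8-positive cells and 111 ± 9.1 CPM in POU5F1-high cells, while CBX3, which binds methylated lysine 9 of histone H3, was lower by 0.47 ± 0.08 on the log2 scale in SYCE3-high than in STRA8-positive cells (adjusted p = 6.91e-05).

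The PCGF subunits, of which each PRC1 form holds one, differed in direction. PCGF5 was at 42.5, 47.2 and 46.7 TMM-scaled CPM in SYCE3-high cells, 16.2, 11.2 and 9.72 in STRA8-positive cells and 2.17, 1.32 and 1.70 in POU5F1-high cells, so these 3 states did not overlap, while the remaining cells, at 9.94 to 13.7, overlapped the STRA8-positive ones. Its log2 fold change was 1.94 ± 0.19 for SYCE3-high over STRA8-positive cells (adjusted p = 1.08e-07) and 2.78 ± 0.27 for STRA8-positive over POU5F1-high cells (adjusted p = 4.12e-08). PCGF3, which forms the same kind of variant complex as PCGF5, had 0.54 ± 0.14 (adjusted p = 0.00299) and 0.31 ± 0.13 (adjusted p = 0.0341), and PCGF1 had 1.21 ± 0.27 (adjusted p = 0.000827) and −0.68 ± 0.24 (adjusted p = 0.0155), the second of which was −0.15 under total UMI scaling (adjusted p = 0.586). PCGF2, BMI1 and CBX2, subunits of canonical PRC1, were lower in SYCE3-high than in STRA8-positive cells. PCGF2 fell to 25.2 ± 4.3 CPM in SYCE3-high cells and 38.7 ± 1.2 CPM in STRA8-positive cells, against 71.0 ± 7.0 CPM in POU5F1-high cells, and BMI1 was at 54.7 ± 9.6, 92.1 ± 10.2 and 101 ± 12.2 CPM in these states, with a call in SYCE3-high over STRA8-positive cells (−0.78 ± 0.15, adjusted p = 0.000211). In STRA8-positive over POU5F1-high cells BMI1 gave −0.14 (adjusted p = 0.314) and, under total UMI scaling, 0.40 (adjusted p = 0.00496). CBX2, the canonical subunit that compacts chromatin, had −1.05 ± 0.17 (adjusted p = 4.55e-05) and −0.85 ± 0.12 (adjusted p = 2.58e-06) in the 2 steps. Over the 14 genes found of the list of other PRC1 subunits, 3 were higher and 4 lower in SYCE3-high than in STRA8-positive cells, and 4 higher and 5 lower in STRA8-positive than in POU5F1-high cells. Scaling to total UMIs turned the second split into 9 higher and 3 lower. Of all genes, 25.6% were higher and 26.1% lower in the first of these contrasts, and 33.6% and 33.1% in the second (55.7% and 16.1% under total UMI scaling).

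**Figure D3:**
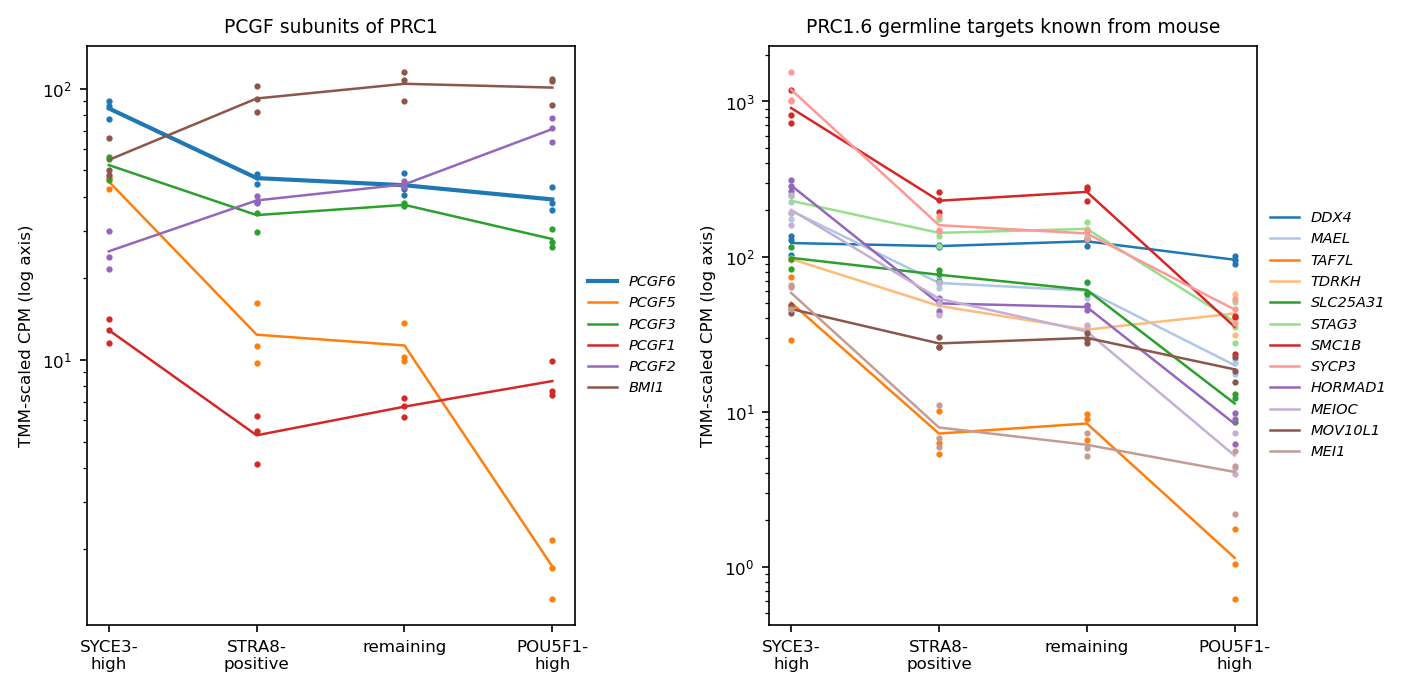
TMM-scaled CPM on a log axis in the 4 states, with lines through the means and points for the 3 libraries. Each compared with itself over the states, PCGF5 and PCGF6 are highest and PCGF2 and BMI1 lowest in SYCE3-high cells. PCGF1 and PCGF3 are also higher in SYCE3-high than in STRA8-positive cells. Of the 12 PRC1.6 target genes known from mouse, 11 were higher in SYCE3-high than in STRA8-positive cells, against 25.6% of all genes.

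Among 8 PRC2 partners found, 4 were higher and 2 lower in STRA8-positive than in POU5F1-high cells, and 3 were higher and 3 lower in SYCE3-high than in STRA8-positive cells. With total UMI scaling, 6 were higher and 1 lower in the first contrast. Over all genes 33.6% were higher and 33.1% lower in the first contrast (55.7% and 16.1% with total UMI scaling), and 25.6% and 26.1% in the second. The histone chaperones RBBP4 and RBBP7, which take the same place in PRC2, went in opposite directions. RBBP4 was at 306 ± 16.2 CPM in SYCE3-high cells, 359 ± 23.0 CPM in STRA8-positive cells and 693 ± 10.4 CPM in POU5F1-high cells, and RBBP7 at 251 ± 7.8, 174 ± 20.3 and 129 ± 23.3 CPM (SD, n = 3 each). EZH1, the paralog of EZH2 with weaker methyltransferase activity, rose by 1.30 ± 0.21 on the log2 scale in SYCE3-high against STRA8-positive cells (adjusted p = 3.68e-05), at only 25.1 ± 3.6 CPM against 10.6 ± 2.1 CPM. JARID2 and MTF2 are accessory subunits that help PRC2 bind. In that contrast JARID2 fell by 1.01 ± 0.10 (adjusted p = 1.84e-07) and MTF2 was higher by 0.69 ± 0.09 (adjusted p = 6.41e-06).

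MAX also pairs with the MYC, MXD and related factors. Of 8 genes of this network, 3 were higher and 1 lower in STRA8-positive than in POU5F1-high cells, and 1 was higher and 5 were lower in SYCE3-high than in STRA8-positive cells. The first split became 6 higher and 1 lower with total UMI scaling. Of all genes, 33.6% were higher and 33.1% lower in the first contrast (55.7% and 16.1% with total UMI scaling), and 25.6% and 26.1% in the second. MXD4, a repressor that competes with MYC for MAX, was at 94.6 ± 24.8 CPM in SYCE3-high cells, 193 ± 13.3 CPM in STRA8-positive cells and 30.6 ± 3.4 CPM in POU5F1-high cells. MYCN and MYCL, activators of growth genes, were lower in SYCE3-high than in STRA8-positive cells. MYCN fell to 19.4 ± 5.8 CPM there, against 86.4 ± 12.3 CPM in STRA8-positive cells (log2 fold change −2.09 ± 0.14, adjusted p = 6.52e-10), and MYCL to 2.92 ± 1.80 CPM against 22.5 ± 4.1 CPM (−2.82 ± 0.31, adjusted p = 5.24e-07). MXI1, another MYC antagonist, was higher by 1.25 ± 0.14 on the log2 scale in the same contrast (adjusted p = 4.60e-07). Of 6 other E2F genes tested, 1 was higher and 4 were lower in STRA8-positive than in POU5F1-high cells. Scaled to total UMIs, 1 was higher and 3 were lower, beside the shares of all genes given above for STRA8-positive over POU5F1-high cells. E2F1, the activator of S phase genes, had −1.22 ± 0.11 (adjusted p = 1.45e-08) and E2F5, a repressor, 2.18 ± 0.22 (adjusted p = 6.08e-08) in that contrast, and E2F4, the main E2F of resting cells, had −0.42 ± 0.13 (adjusted p = 0.00632), which became 0.11 under total UMI scaling.

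Genes known as targets of PRC1.6 in mouse were higher at each step. Of 12 genes found, 11 were higher in STRA8-positive than in POU5F1-high cells with a median log2 fold change of 1.85, 11 were higher in SYCE3-high than in STRA8-positive cells with a median of 1.73, and all 12 were higher in SYCE3-high than in POU5F1-high cells with a median of 3.62, against medians of 0.019, −0.036 and 0.015 over all genes. Of all genes, 33.6%, 25.6% and 36.2% were higher in these contrasts. Under total UMI scaling 12, 11 and 12 of the targets were higher, against 55.7%, 27% and 54.1% of all genes. Many of these genes belong to the meiotic program that SYCE3 and STRA8 mark. HORMAD1 and SYCP3 are also on the marker list of the SYCE3-high state, and MEIOC is on that of the STRA8-positive state. DDX4 and MAEL are on the list of germ cell markers. The counts therefore describe the states as much as the targets. HORMAD1, which binds the axes of meiotic chromosomes, was at 285, 313 and 264 TMM-scaled CPM in SYCE3-high cells, 53.6, 44.4 and 51.6 in STRA8-positive cells and 9.001, 6.15 and 9.84 in POU5F1-high cells. SMC1B, a meiotic cohesin, averaged 908 ± 241 CPM in SYCE3-high cells, 229 ± 32.4 CPM in STRA8-positive cells and 35.2 ± 10.1 CPM in POU5F1-high cells. MEIOC, which keeps the meiotic program going, reached 200 ± 45.8 CPM, 53.5 ± 13.3 CPM and 5.19 ± 1.82 CPM in these states. DDX4, the RNA helicase used as a reporter for later germ cells, changed least, with a log2 fold change of 0.07 ± 0.11 for SYCE3-high over STRA8-positive cells (adjusted p = 0.626), and TDRKH, a piRNA factor, had 0.16 ± 0.14 for STRA8-positive over POU5F1-high cells (adjusted p = 0.318), which was 0.70 under total UMI scaling (adjusted p = 0.000457).

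All PRC1.6 genes were not seen together in any 1 cell at equal depth, while the PRC2 genes were in part of the cells. After thinning to 10000 UMIs, 0 cells of the 4 states had a UMI of all 6 PRC1.6 genes, and the mean number of the 6 seen per cell was 2.37 to 2.56 in SYCE3-high cells, 2.14 to 2.40 in STRA8-positive cells and 1.98 to 2.23 in POU5F1-high cells over the libraries. All 3 PRC2 genes were seen in 7.41%, 25.9% and 25.9% of SYCE3-high cells, 17.5%, 26.2% and 17.7% of STRA8-positive cells and 14.1%, 9.23% and 7.76% of POU5F1-high cells. The SYCE3-high share of E13.5 rests on 2 of 27 cells and its interval, 0.910 to 24.3%, holds the POU5F1-high shares. MAX had a UMI in 4.21% of thinned cells, so a full set was hardly detectable at this depth.

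Summed over all germ cells, none of the 9 passed 1.5-fold with at least 20 CPM between any 2 libraries, where 2.13% of genes did for E14.5 over E13.5, 1.97% for E15.5 over E13.5 and 1.7% for E15.5 over E14.5. With 1 library per stage no test was possible. EZH2 was at 152, 132 and 129 CPM of total UMIs by stage, with exact Poisson 95% bounds of 147 to 156, 127 to 136 and 126 to 132, and L3MBTL2 at 36.9, 39.0 and 46.4 CPM, with bounds of 34.8 to 39.1, 36.6 to 41.6 and 44.7 to 48.2. The share of POU5F1-high cells, which was 11.9%, 24.3% and 22.0% in these libraries, was lowest where EZH2 was highest. With the 4 states given equal weight, EZH2 was at 146, 151 and 144 CPM and L3MBTL2 at 37.6, 36.7 and 46.6 CPM. E13.5 then no longer led for EZH2, and E15.5 still led for L3MBTL2. Without shared barcodes, and with the states not reweighted, EZH2 was at 121.4, 121.4 and 115.9 CPM by stage. L3MBTL2 was again highest in E15.5 there. The part of the state shares or of the shared barcodes in these differences between libraries was not tested. MAX, at under 20 CPM throughout, could not pass this size, and counts of members here are of the other 8. Its own level was 13.7, 8.28 and 4.48 CPM in SYCE3-high cells and 7.84, 3.27 and 3.27 CPM in STRA8-positive cells by stage, from 5 to 24 UMIs each. In POU5F1-high cells MAX was at 5.84, 5.52 and 5.74 CPM, and in mouse barcodes at 20.3, 17.4 and 6.72 CPM. The part of mouse RNA in these values was not tested. Within states, 2 genes passed that size. No member did within POU5F1-high cells, where 5.01%, 3.54% and 6.16% of genes passed for E14.5 over E13.5, E15.5 over E13.5 and E15.5 over E14.5, nor within the remaining cells, where 1.23%, 1.97% and 1.65% did. L3MBTL2 in STRA8-positive cells was at 40.0 CPM in E15.5 against 24.5 CPM in E13.5, where 4.85% of genes passed, and no member passed for E14.5 over E13.5 (5.44% of genes) or E15.5 over E14.5 (5.1%) there. EED in SYCE3-high cells was at 33.1 CPM in E14.5 and 38.1 CPM in E15.5 against 21.5 CPM in E13.5, where 20.8% and 11.9% of genes passed, and the E13.5 value rests on 25 UMIs. For E15.5 over E14.5 no member passed there, against 16.9% of genes.

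**Figure D4:**
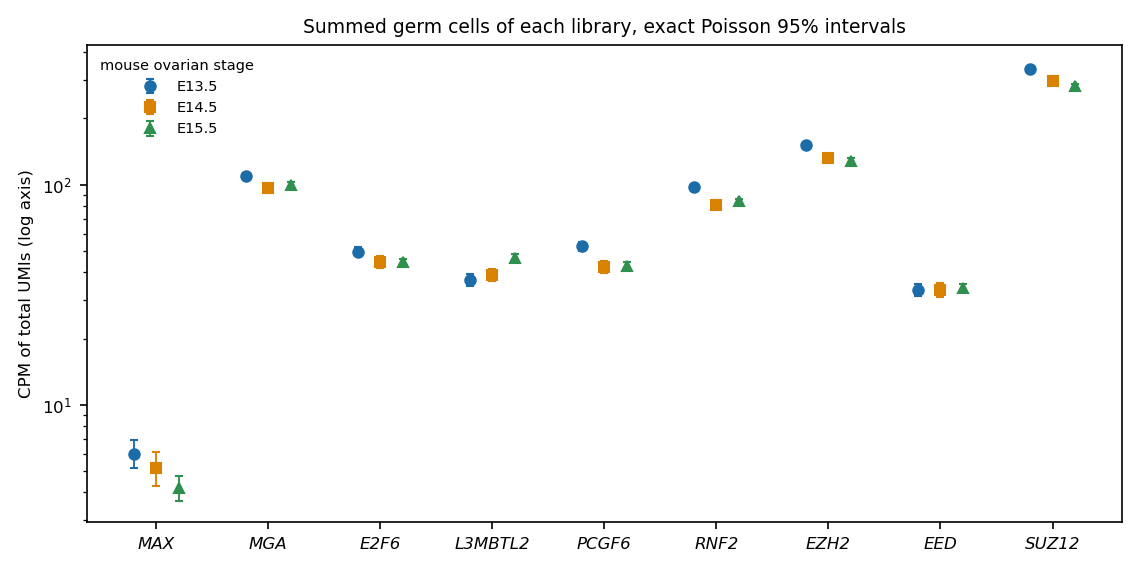
CPM of total UMIs of the 9 genes in the summed germ cells of each library, on a log axis, with exact Poisson 95% intervals. The 3 libraries lie close together for every gene, and L3MBTL2 is highest in E15.5 (46.4 CPM) where most of the others are highest in E13.5.

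In mouse barcodes SUZ12 was at 154 to 218 CPM of total UMIs, MGA at 97.53 to 104, EZH2 at 54.1 to 81.3, EED at 54.9 to 70.7, RNF2 at 32.9 to 39.6, PCGF6 at 20.6 to 31.3, MAX at 6.72 to 20.3, L3MBTL2 at 9.94 to 16.0 and E2F6 at 7.06 to 12.3. For EED and MAX these levels were above those of the germ cells, at 33.2 to 34.0 CPM and 4.17 to 5.96 CPM. The part of mouse RNA in the germ values of these genes was not tested.

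The gene whose log2(CPM + 1) followed a member most closely over the 12 sums was looked up among 7322 genes (7323 for MAX) with a mean of at least 20 CPM. Pearson's r was 0.99 for PCGF6 with CDK19 and for EZH2 with LRRC4, 0.98 for RNF2 with SEC23A, and 0.94 for E2F6 with ZHX1 and for L3MBTL2 with KCTD6. It was 0.91 for EED with C14H11orf24, 0.90 for SUZ12 with PLK4 and 0.84 for MAX with LOC102116109. The sums share libraries and make-up, since these CPM are of total UMIs: with TMM-scaled values KCTD6 and LRRC4 stayed the closest to L3MBTL2 and EZH2 (0.98 and 0.99), and the other members named here had another one.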

How the data were processed

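The authors deposited UMI counts per gene and barcode. Per the file headers, they come from Cell Ranger 6.0.1. The genome build is not given in the sources used here. Cells were filtered and put into states as described above, with no doublet removal. UMI counts were summed per library and state (12 sums), filtered with filterByExpr, scaled by TMM and tested with edgeR 4.0.16 in R 4.3.3 with the library as block. DESeq2 1.42.0 was an alternative. Same-numbered samples here are the states of 1 library. Their deviations from the mean of each state over the 3 libraries correlated at 0.11 to 0.63. Between libraries the median was −0.15. Taking deviations from that mean itself pushes the values between libraries to the negative side, so they are no baseline for the pairing. The p-values rest on the spread left after state and library effects, over all 4 states and 3 libraries that differ in mouse stage. Differences between libraries common to all states are taken out by the block. Levels of single libraries have exact Poisson intervals, which cover counting error only. The edgeR script was tested on simulated data first. The members and gene lists were chosen with earlier results of these data known. The rule for named genes took the 9 members, all genes of the lists and, for each member, the gene most like it; which list genes are given with values was chosen after their values were seen. The gene most like MGA is not reported here. POU5F1, STRA8 and SYCE3, which define the states, were not tested. Other alternatives changed the cuts, depth, cells and filters.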

Additional observations from a re-analysis of the deposited data

How the results depend on the processing

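Of the results of single members under the alternatives, 540 kept their side of the threshold, 45 lost it with their direction kept and 8 passed it newly. A further 7, past it in the main setting, changed sign. Direction was not compared for results past the threshold in neither setting, and the 8 include changes of sign. The causes were not tested. Counts below are of the 9 genes. Total UMI scaling, chosen after seeing the data, gave 4 higher and 2 lower (main 2 and 6) in STRA8-positive over POU5F1-high cells, 0 lower (main 1) in SYCE3-high over STRA8-positive cells, and 4 higher and 1 lower (main 2 and 4) in SYCE3-high over POU5F1-high cells. Among results past the threshold in the main setting, it turned the log2 fold change to 0.32 for MGA, 0.087 for E2F6, 0.040 for EED and 0.11 for E2F4 in the first contrast. In the third it became 0.15 for EED and 0.095 for SUZ12. MGA and RNF2 newly passed there at 0.57 and 0.52, against −0.02 and −0.07 under TMM. In the first contrast 1 was higher with no low-count filter, with no replicate block, with barcodes of 1 library, with cells thinned to 10000 UMIs and with each library left out; leaving out a library gave 3 to 5 lower, the 3 without E15.5. Without the replicate block PCGF6, MAX and MGA lost the call there (adjusted p = 0.0764, 0.0735 and 0.0952, edgeR). In SYCE3-high over STRA8-positive cells 1 was higher with barcodes of 1 library and 0 in cells low in the S and G2M lists, both settings added later. The 1 lower there, E2F6, became 2 with no low-count filter, 0 to 1 with a library left out, and 0 with barcodes of 1 library, Leiden clusters highest in STRA8 (also added), cells low in S and G2M lists, a STRA8 cut of 2, the higher SYCE3 percentile, thinning, and without the deepest 2.5% of cells. Among results past the threshold in the main setting of that contrast, the sign changed for E2F6 when thinned (0.049). With the clusters it changed for RBBP4 (0.047) and SLC25A31 (−0.39). In low-cycling cells it changed for SUZ12 (−0.081), PCGF1 (−0.25), PCGF3 (−0.44), MXI1 (−0.67), STAG3 (−0.50) and MOV10L1 (−0.61). In SYCE3-high over POU5F1-high cells 1 was higher in low-cycling cells. The planned Leiden clusters gave no value for contrasts with STRA8-positive cells, since no cluster reached the cut.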
